A study of Homo sapiens with 10 samples.

Results

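The 78 regions described here are those assigned to 6 genes that hold the epidermal growth factor receptor (EGFR) in check: ERRFI1, LRIG1, LRIG3, CBL, CBLB and CBLC. They are every region with one of these symbols among the 67387 annotated regions of the series, out of 169637 regions counted in all, and none was left out. H3K27ac, the acetylation of lysine 27 of histone H3 found at active promoters and enhancers, was measured by ChIP-seq in H1975. This established cell line was derived from a human lung adenocarcinoma with mutant EGFR. The DMSO group (3 libraries) was cultured drug-free for 21 days and then in DMSO for 3 days. The osimertinib DTP group (3 libraries), drug-tolerant persister cells, was kept for 24 days in osimertinib, an inhibitor of mutant EGFR, at 500 nM. The osimertinib DTP + AZD5153 group (3 libraries) had 21 days of osimertinib at 500 nM and then 3 days of AZD5153, an inhibitor of BET bromodomain proteins, at 150 nM. The labels do not state whether osimertinib was kept on during those 3 days, so the comparison of both drug groups cannot tell added AZD5153 from withdrawn osimertinib. All groups come from 1 cell line, and no source used here says whether the replicates were separate cultures, so the p-values measure the spread between these libraries only, which may be technical. In bulk samples, fewer cells carrying the mark and less of it per cell cannot be told apart.

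Signalling by EGFR is limited by proteins that act directly on the receptor. ERRFI1 (MIG6) is induced by EGFR signalling, binds the active kinase domain and inhibits it. LRIG1 and LRIG3 are transmembrane proteins with leucine-rich repeats and immunoglobulin-like domains, and LRIG1 lowers the amount of EGFR at the cell surface. CBL, CBLB and CBLC are E3 ubiquitin ligases that attach ubiquitin to activated receptor kinases, which marks them for endocytosis and lysosomal breakdown.

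The number of regions differed widely between the genes. ERRFI1 had 43 regions, more than 99.8% of the 15633 genes with a region, against a median of 2 regions per gene. Of these, 35 had their centre upstream of the gene, the farthest at -72.8 kb from its start, and 32 of the 37 distal regions (beyond 3 kb of a start site) lay in intron 2 of ERRFI1-DT, the divergent transcript of the same promoter. LRIG1 had 16 regions, of which 11 lay in its intron 3, 2 in its intron 1 and 1 in intron 7 of the neighbouring gene SLC25A26. LRIG3 had 6 regions, none of them distal. CBL had 3, CBLB had 4 and CBLC had 6, each with 1 distal region. Assignment of a region to a gene was the deposited one, by the nearest annotated start site, and does not show which gene a distal region acts on.

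The bases just upstream of 4 of the 6 genes are shown because the promoter regions measured here lie on or beside them. They were taken from RefSeq (GRCh38.p14), which had an entry for ERRFI1, LRIG1, LRIG3 and CBLB, and each is written 5′ to 3′ on the minus strand, the strand of these 4 genes. Capitals mark matches, on either strand, to the GC box letters GGGCGG and to CCAAT. The windows are chr1:8026310-8026559 for ERRFI1, chr3:66501122-66501371 for LRIG1, chr12:58920505-58920754 for LRIG3 and chr3:105869450-105869651 for CBLB.
ERRFI1: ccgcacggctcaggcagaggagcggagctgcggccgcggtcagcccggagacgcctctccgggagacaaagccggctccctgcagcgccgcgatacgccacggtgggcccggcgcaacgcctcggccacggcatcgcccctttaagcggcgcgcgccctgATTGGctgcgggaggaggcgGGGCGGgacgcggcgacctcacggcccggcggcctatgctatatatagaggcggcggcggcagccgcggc
LRIG1: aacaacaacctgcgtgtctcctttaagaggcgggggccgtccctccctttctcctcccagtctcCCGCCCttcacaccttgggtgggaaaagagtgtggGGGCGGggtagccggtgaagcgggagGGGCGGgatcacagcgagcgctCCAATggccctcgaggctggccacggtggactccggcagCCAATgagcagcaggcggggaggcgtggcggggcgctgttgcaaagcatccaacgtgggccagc
LRIG3: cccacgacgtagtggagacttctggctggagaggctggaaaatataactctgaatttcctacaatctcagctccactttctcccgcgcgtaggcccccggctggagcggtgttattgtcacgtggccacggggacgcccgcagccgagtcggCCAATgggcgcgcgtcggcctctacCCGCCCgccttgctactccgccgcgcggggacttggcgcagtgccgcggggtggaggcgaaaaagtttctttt
CBLB: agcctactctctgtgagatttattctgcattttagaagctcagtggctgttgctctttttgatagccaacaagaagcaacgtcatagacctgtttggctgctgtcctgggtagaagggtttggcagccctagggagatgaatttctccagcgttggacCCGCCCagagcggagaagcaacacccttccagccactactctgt
The ERRFI1 window held 39 CpG, more than 97.3% of 35116 promoter windows of 250 bp, whose median was 11. LRIG3 had 27 and LRIG1 had 18 in windows of the same length, and the CBLB window of 202 bp had 4. A GC box was found in 42.6% of all these windows and CCAAT in 32.0%. None of the windows of ERRFI1, LRIG1 and LRIG3 held TGANTCA (AP-1, in 6.6% of all), CCGGAAG (ETS, 8.5%), GGAATG (TEAD, 11.9%) or TATAAA (10.7%). These are letter matches only.

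The H3K27ac libraries held between 6263443 and 10463351 counts, and the single pooled input had 1870885. One library stood apart. Replicate 3 of osimertinib DTP + AZD5153 had the lowest total, took 66.7% of its annotated counts from promoter regions (within 1 kb of a start site) and had a Spearman correlation of 0.354 to 0.430 with its own group across regions. Replicate 2 of osimertinib DTP had a promoter share of 59.8%, while the other 7 libraries had 40.3% to 45.9% and correlations within groups were otherwise 0.818 to 0.898. At the member genes, these 2 libraries were the highest of their group in 11 (replicate 3 of osimertinib DTP + AZD5153) and 9 (replicate 2 of osimertinib DTP) of 15 promoter regions, and the lowest in 38 and 26 of 54 distal regions. Results that rest on osimertinib DTP + AZD5153 are therefore mostly given with and without its replicate 3. Promoter H3K27ac matched the labelled epithelial line for KRT8, EPCAM and KRT19, which were above 99.6%, 90.2% and 78.6% of genes, less so for NKX2-1 (61.3%), CDH1 (44.1%) and KRT18 (29.5%). The blood markers PTPRC and CD3E and the endothelial markers PECAM1 and VWF had no promoter region, whereas COL1A1, COL1A2, PDGFRA and CDH5 had one, at 14.7% to 50.6%. Values below are CPM, read counts scaled to a common library size with TMM factors. Every region was 502 bp wide, so that levels are comparable per length. For the member regions the median ratio of the H3K27ac mean to the input CPM was 1.39, and 23 of 78 ratios were below 1. Both CPM are scaled to reads within the counted regions. The ratio therefore sets a region against the counted regions as a whole and does not measure enrichment over the genome. No input count in the member regions exceeded 22, so that single ratios are imprecise.

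The first comparison asked how H3K27ac at these genes differed between osimertinib-tolerant and untreated cells. It was tested with edgeR's quasi-likelihood test, with Benjamini-Hochberg adjustment over 157919 regions and a threshold of 0.05. Of the 78 regions, 6 were higher in osimertinib DTPs (7.69%, against 5.58% of all regions) and 9 were lower (11.5%, against 5.13% of all regions). The higher regions all belonged to LRIG1, while 6 of the lower ones belonged to ERRFI1 and 3 to CBLC. LRIG3, CBL and CBLB had no call. The median log2 fold change was 1.91 for LRIG1, 1.23 for CBLB, 0.41 for LRIG3, -0.23 for CBL, -0.90 for ERRFI1 and -2.26 for CBLC, compared with 0.15 over all regions. Neighbouring regions of a gene share an acetylated domain and are not independent of each other. The counts depended on single libraries. Without replicate 3 of osimertinib DTP + AZD5153, which is in neither compared group, 15 were higher and 20 lower, and the background rose to 14.2% and 12.7%. Without DMSO replicate 2 they were 0 and 0 (0.407% and 0.294% of all regions), and without DMSO replicate 3 they were 1 and 2 (0.812% and 1.13%). Leaving out osimertinib DTP replicates 1, 2 and 3 gave 2 and 3 (3.46% and 1.74%), 1 and 3 (2.02% and 0.973%), and 1 and 2 (1.85% and 0.903%), so that the calls over all regions moved as well.

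The second comparison set osimertinib DTP + AZD5153 against DMSO. Here 4 of the 78 regions were higher (5.13%, against 9.05% of all regions) and 23 were lower (29.5%, against 9.01% of all regions). The lower regions were 18 of ERRFI1, 4 of CBLC and 1 of CBL, and the higher ones 3 of LRIG1 and 1 of CBLB. The medians were 1.63 for LRIG1, 1.33 for CBLB, 0.81 for LRIG3, 0.05 for CBL, -1.48 for ERRFI1 and -3.66 for CBLC, against 0.23 over all regions. Without replicate 3 of osimertinib DTP + AZD5153 the calls were 11 higher and 27 lower (18.4% and 17.3% of all regions). The medians were then 1.67, 1.40, 1.02, -0.80, -1.08 and -3.74 in the same order, against -0.11 over all regions. The higher count was 1 without DMSO replicate 2 (2.4% of all regions) and 2 without DMSO replicate 3 (2.56%), osimertinib DTP + AZD5153 replicate 1 (5.19%), or osimertinib DTP replicate 1 (7.39%) or 3 (7.25%). The lower count was 10 without DMSO replicate 2 (2.76% of all regions) and 11 without DMSO replicate 3 (3.58%). Both comparisons use the same DMSO libraries, so their values are set side by side and not counted as separate evidence.

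**Figure D1:**
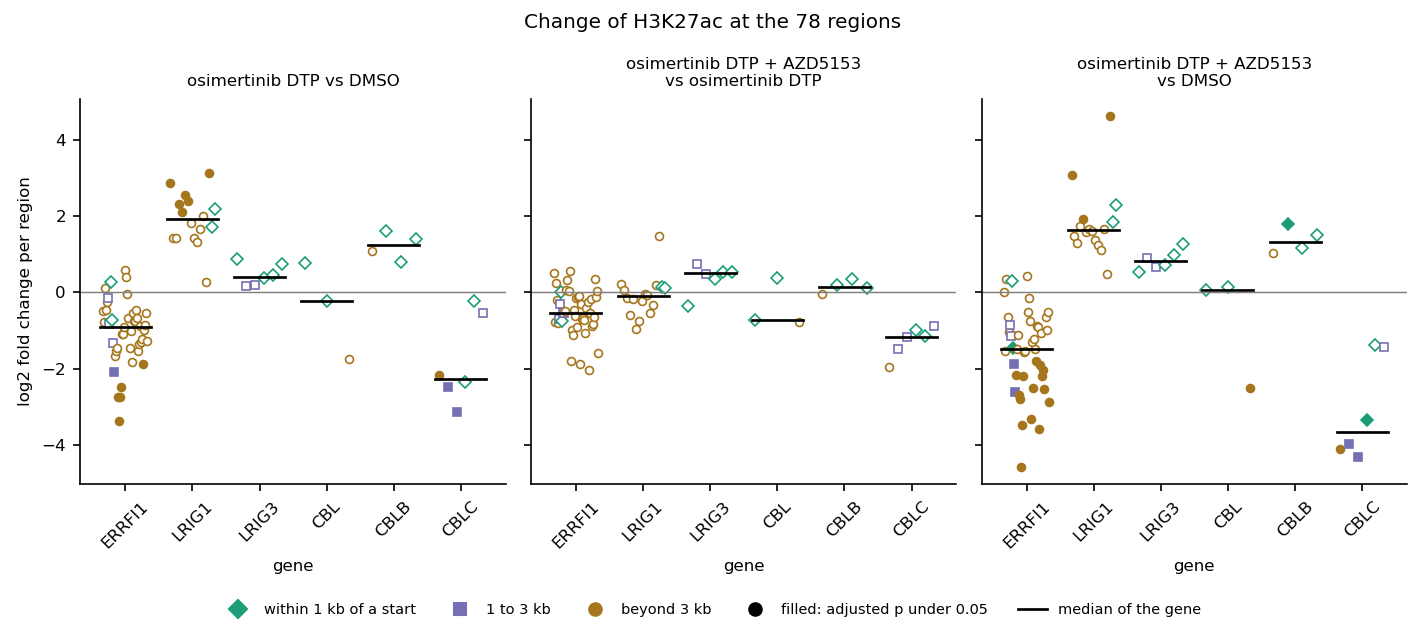
Log2 fold change of H3K27ac at each of the 78 regions, by gene (x axis) and comparison (panel). Each symbol is a region, its shape and colour give the distance class from a start site, filled symbols had an adjusted p under 0.05, and bars are gene medians. LRIG1 regions lay above 0 and CBLC regions below 0 in both comparisons with DMSO, and no symbol is filled in the middle panel.

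Between both drug groups, osimertinib DTP + AZD5153 and osimertinib DTP, 0 of the 78 regions and 0 of all 157919 regions passed the threshold in either direction (0.0% of all regions). At an unadjusted p under 0.05 there were 7 of the 78 member regions and 7013 of all regions, and DESeq2 called 0 member regions and 21 higher and 73 lower regions of all. The median log2 fold change was -1.16 for CBLC, -0.71 for CBL, -0.54 for ERRFI1, -0.11 for LRIG1, 0.15 for CBLB and 0.50 for LRIG3, against 0.06 over all regions. Without replicate 3 of osimertinib DTP + AZD5153 these medians were -1.93, -0.51, -0.17, 0.13, 0.46 and 0.40, so that LRIG1 turned sign. The median over all regions was then -0.17, the same as that of ERRFI1. In that fit 103 regions of all were higher (0.0637%) and 95 lower (0.0587%), again with none among the 78. The libraries of the drug groups did not overlap in 1 higher and 7 lower member regions (1.28% and 8.97%, against 2.83% and 5.4% of all regions), and without replicate 3 in 11 higher and 13 lower ones (of all regions, 19.0% and 18.4%). The missing calls do not show that the drug groups were alike.

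ERRFI1 had the most acetylated promoter region of the 6 genes in DMSO, and 39 of its 43 regions had a negative log2 fold change in each comparison with DMSO. Its main promoter region, chr1:8026708-8027209, lies at -399 bp from the annotated start, in ERRFI1-DT, and 149 bp from the window printed above. It had 49.2, 61.3 and 57.9 CPM in DMSO, 41.5, 39.9 and 20.9 in osimertinib DTPs, and 20.7, 13.96 and 26.5 in osimertinib DTP + AZD5153. Both drug groups lay below all DMSO libraries. The fall from DMSO was not past the threshold in osimertinib DTPs (log2 fold change -0.72 ± 0.49 (SE), adjusted p = 0.393, n = 3 per group), and was just past it with AZD5153 (-1.46 ± 0.50, adjusted p = 0.0495, or 0.0653 with the replicate number as a block; -1.70 and 0.00779 without replicate 3). The latter call was kept in 2 of the 9 fits that each left out 1 library, with an adjusted p of up to 0.182 without osimertinib DTP + AZD5153 replicate 2. The second promoter region, chr1:8025453-8025954, inside the gene, showed no such order. It had 20.4, 23.5 and 15.7 CPM in DMSO, 18.2, 41.6 and 12.7 in osimertinib DTPs and 10.8, 8.49 and 53.7 in osimertinib DTP + AZD5153, with the highest values in the 2 libraries of high promoter share. Its changes were 0.28 (adjusted p = 0.853) and 0.28 (0.817; -1.05 and 0.117 without replicate 3).

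The differences were uneven along the upstream domain of ERRFI1. Of the 6 regions called in osimertinib DTPs, 4 lay side by side with centres at -17.6 to -20.02 kb from the gene start, in intron 2 of ERRFI1-DT, and the others near the promoter, at -2746 bp, and at -67.5 kb. Region chr1:8044514-8045015 had 5.53, 17.6 and 12.9 CPM in DMSO, 1.63, 0.557 and 1.21 in osimertinib DTPs, and 1.00, 1.40 and 2.90 in osimertinib DTP + AZD5153. Every drug-group library was below every DMSO library. The log2 fold change was -3.37 ± 0.67 in osimertinib DTPs (edgeR adjusted p = 0.0068) and -2.80 ± 0.66 with AZD5153 (0.00878; -3.32 and 0.000298 without replicate 3), each call kept in 8 of 9 fits and lost without DMSO replicate 2 (0.0609 and 0.0596). Its neighbour chr1:8045482-8045983 had the largest fall of all 78 regions with AZD5153. It had 4.53, 7.64 and 6.84 CPM in DMSO, 0.956, 0.696 and 1.11 in osimertinib DTPs, and 0.401, 0 and 0.387 in osimertinib DTP + AZD5153. The changes were -2.75 ± 0.68 (adjusted p = 0.0173) and -4.57 ± 0.80 (0.00203; -4.83 and 7.71e-05 without replicate 3), and the second was called in all 9 of 9 fits. Region chr1:8046074-8046575 followed with 9.70, 21.3 and 15.9 CPM in DMSO, 3.15, 1.25 and 3.93 in osimertinib DTPs and 1.20, 1.98 and 0.966 with AZD5153 (-2.47 ± 0.60, adjusted p = 0.0157, and -3.47 ± 0.64, 0.00251; -3.30 and 0.000216 without replicate 3). All 3 DMSO libraries had a peak in each of these regions, and none of the 3 osimertinib DTP + AZD5153 libraries did.

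The regions farther upstream varied. Region chr1:8088604-8089105, at -62.5 kb, had 4.53, 4.44 and 4.02 CPM in DMSO, 2.39, 0.696 and 1.31 in osimertinib DTPs, and 0.301, 0.233 and 0.580 in osimertinib DTP + AZD5153. The groups did not overlap, with log2 fold changes of -1.54 ± 0.62 (adjusted p = 0.12) and -3.58 ± 0.73 (0.00412; -3.96 and 0.000303 without replicate 3). By contrast the most acetylated distal region, chr1:8096997-8097498, at -70.9 kb, overlapped between groups. It had 30.7, 54.8 and 34.4 CPM in DMSO, 24.2, 31.6 and 26.1 in osimertinib DTPs and 36.9, 40.6 and 5.61 in osimertinib DTP + AZD5153, of which the last is replicate 3. Its log2 fold changes were -0.55 ± 0.60 (adjusted p = 0.631) and -0.53 ± 0.60 (0.598; -0.05 and 0.937 without replicate 3). Across the 37 distal regions, the level was taken as the mean over all 9 libraries, with a median of 6.73 CPM. The 18 regions below it had median log2 fold changes of -1.25 in osimertinib DTPs and -2.10 with AZD5153, with 4 and 11 calls. The 19 at or above it had -0.89 and -1.06, with 1 and 4 calls. Without replicate 3 the medians with AZD5153 were -1.92 and -0.73. The level includes the drug groups, so a larger fall itself lowers it, and this contrast follows in part from the split. It is a description with no test.

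In all, 28 of the 43 ERRFI1 regions (65.1%) were lower in every osimertinib DTP library than in every DMSO library, against 18.9% of all regions, and none was higher in every one. With AZD5153 it was 30 of 43 (69.8%, against 19.0% of all regions), or 31 without replicate 3, when 31.8% of all regions were lower, and then 3 were higher in every library. The 4 regions with a positive value in osimertinib DTPs were a pair at -32.9 and -33.4 kb and a pair downstream of the gene start. Fold changes over the 43 regions ranged from -3.37 to 0.59 on the log2 scale in osimertinib DTPs and from -4.57 to 0.44 with AZD5153, and 39 were negative in each. Regions with a MACS2 peak numbered 42, 43 and 43 of 43 in DMSO and 35, 31 and 33 in osimertinib DTPs. In osimertinib DTP + AZD5153 they numbered 32, 31 and 14, the lowest being replicate 3. The peak lists differed in length, from 54188 peaks (osimertinib DTP replicate 2) to 70227 (osimertinib DTP replicate 3). The share of all regions with a peak is not given, so peak counts here and below have no background to set them against.

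**Figure D2:**
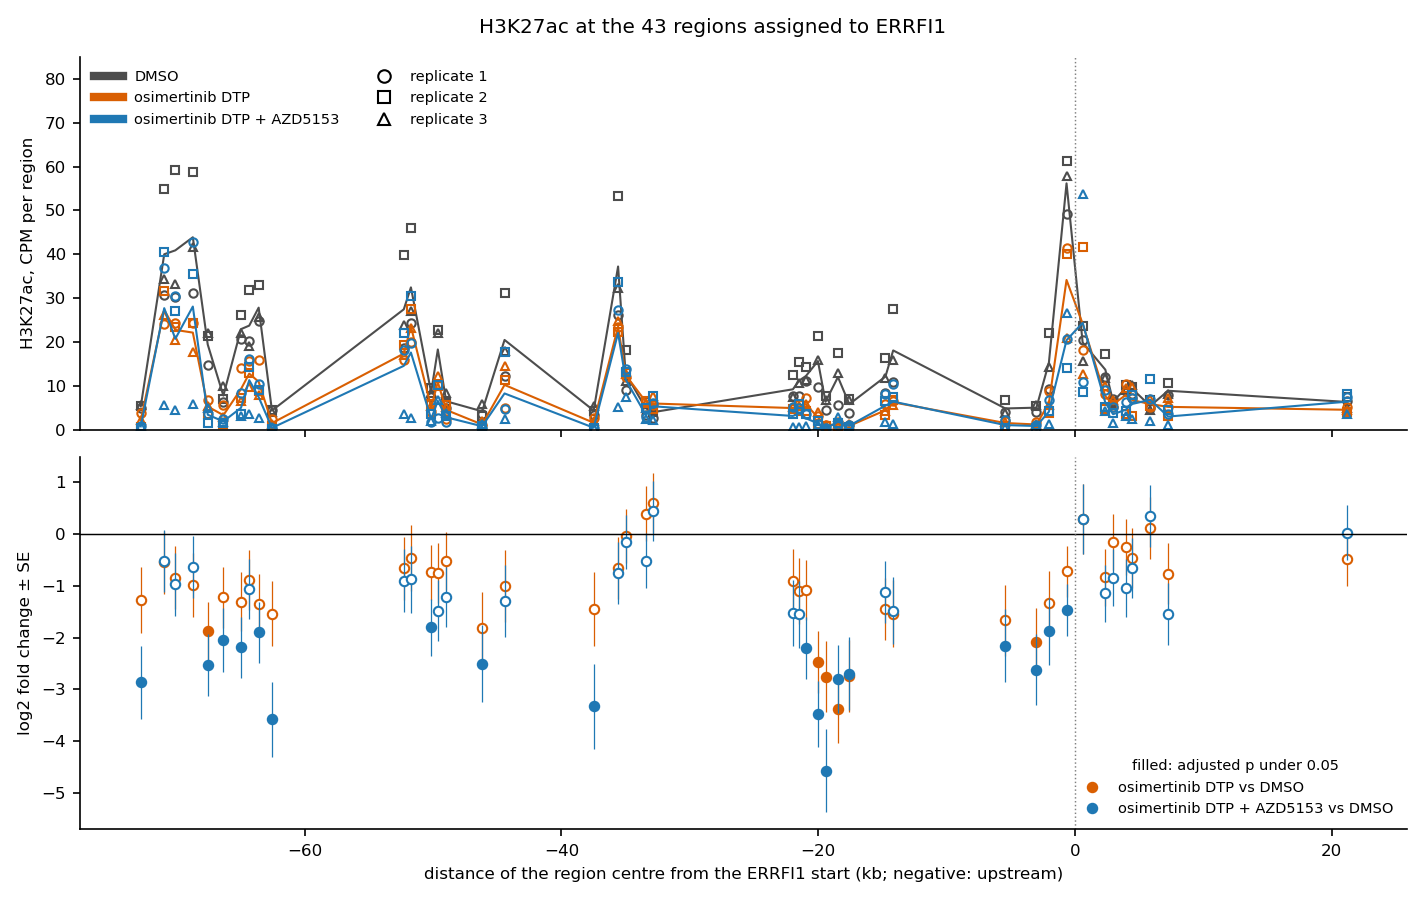
H3K27ac at the 43 ERRFI1 regions against distance from the ERRFI1 start. The upper panel gives CPM per library (symbols) and group means (lines), and the lower panel the log2 fold change ± SE of both drug groups against DMSO, filled where the adjusted p was under 0.05. The lowest values of the lower panel lie at about 20 kb upstream, down to -4.57.

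The values of LRIG1 had the opposite sign. All 16 of its regions had a positive log2 fold change in both comparisons with DMSO, from 0.28 to 3.13 in osimertinib DTPs and from 0.48 to 4.61 with AZD5153. Its regions form groups inside the gene, and 4 of the 6 called in osimertinib DTPs lay within intron 3, 67.7 to 69.9 kb downstream of the annotated gene start. Region chr3:66430955-66431456 had 6.71, 2.17 and 1.61 CPM in DMSO, 25.2, 17.3 and 10.2 in osimertinib DTPs, and 14.3, 8.38 and 12.2 in osimertinib DTP + AZD5153. Both drug groups were above all DMSO libraries, with log2 fold changes of 2.32 ± 0.64 (adjusted p = 0.0281) and 1.72 ± 0.63 (0.0646; 1.68 and 0.0215 without replicate 3). Region chr3:66431743-66432244 was called in both comparisons, with 5.62, 2.38 and 1.01 CPM in DMSO, 17.6, 12.5 and 8.56 in osimertinib DTPs, and 16.8, 10.9 and 6.57 in osimertinib DTP + AZD5153. Its changes were 2.09 ± 0.65 (0.0477) and 1.93 ± 0.65 (0.0475; 2.19 and 0.00379 without replicate 3). The adjacent regions chr3:66432651-66433152 and chr3:66433166-66433667 were called in osimertinib DTPs (2.56 ± 0.72, adjusted p = 0.0312, and 2.40 ± 0.72, 0.0403), while with AZD5153 their values were 1.59 (0.13; 1.42 and 0.0825 without replicate 3) and 1.66 (0.118; 1.48 and 0.0788). Whether the drug groups differed there was tested by their own comparison, which called neither. Each of these 4 calls in osimertinib DTPs was lost without DMSO replicate 2 or 3 or osimertinib DTP replicate 1 or 2 (adjusted p up to 0.24), and the call of chr3:66431743-66432244 with AZD5153 was kept in 2 of 9 fits (up to 0.233).

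A pair of further LRIG1 regions had the largest folds, both from low levels. Region chr3:66482778-66483279 in intron 1 had 1, 1 and 4 reads in DMSO (0.0907, 0.103 and 0.402 CPM), then 1.53, 1.53 and 2.42 CPM in osimertinib DTPs and 6.71, 5.47 and 3.09 CPM in osimertinib DTP + AZD5153. The 3 groups did not overlap. The log2 fold changes against DMSO were 3.13 ± 0.76 (edgeR adjusted p = 0.0154) and 4.61 ± 0.76 (0.00161; 4.86 and 1.31e-05 without replicate 3), and they rest on few reads. The input had 3.74 CPM there, above every DMSO and osimertinib DTP library, although CPM within counted regions do not measure enrichment over the genome. Peaks were listed in 0 of 3 libraries in each of those groups and 3 of 3 with AZD5153. Region chr3:66362262-66362763, in SLC25A26, had 0.726, 0.516 and 0.603 CPM in DMSO, 5.16, 4.04 and 4.53 in osimertinib DTPs and 7.31, 7.45 and 0.966 in osimertinib DTP + AZD5153, the last again replicate 3. The changes were 2.87 ± 0.71 (0.0174) and 3.08 ± 0.71 (0.00808; 3.55 and 2.25e-05 without replicate 3). Without DMSO replicate 2, these 2 regions were no longer called in osimertinib DTPs (0.104 and 0.107), nor was the one in SLC25A26 with AZD5153 (0.0561).

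The most acetylated LRIG1 region and its strongest promoter region did not pass the threshold. The most acetylated, chr3:66441356-66441857, had 20.3, 7.33 and 3.82 CPM in DMSO, 41.7, 25.2 and 17.5 in osimertinib DTPs and 42.6, 30.6 and 8.50 in osimertinib DTP + AZD5153. DMSO replicate 1 exceeded osimertinib DTP replicate 3, and the changes were 1.42 ± 0.68 (adjusted p = 0.198) and 1.38 ± 0.68 (0.174; 1.79 and 0.0145 without replicate 3). DMSO replicate 1 was the highest DMSO library at every LRIG1 region except chr3:66482778-66483279. The promoter region chr3:66500568-66501069 had 5.71, 1.65 and 1.71 CPM in DMSO, 12.4, 25.6 and 3.52 in osimertinib DTPs and 11.2, 3.96 and 30.0 in osimertinib DTP + AZD5153, and the groups overlapped. Its changes were 2.18 ± 0.81 (0.0918) and 2.29 ± 0.81 (0.0585; 1.31 and 0.119 without replicate 3). With the replicate number as a block, 8 LRIG1 regions passed in osimertinib DTPs in place of 6, while 8433 of all regions were higher in place of 8814. LRIG1 regions with a peak numbered 12, 4 and 1 of 16 in DMSO, 15, 15 and 15 in osimertinib DTPs and 16, 12 and 11 in osimertinib DTP + AZD5153. In all, 8 of the 16 were higher in every osimertinib DTP library than in every DMSO library, against 20.2% of all regions. With AZD5153 it was 4 of 16 (25.0%, against 14.4%), or 8 of 16 without replicate 3 (against 29.7%).

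LRIG3 had no called region in any comparison. All 6 log2 fold changes were positive against DMSO in both drug groups, from 0.17 to 0.88 in osimertinib DTPs and from 0.52 to 1.26 with AZD5153. The strongest region, chr12:58919969-58920470 at the start site, had 22.3, 25.9 and 19.1 CPM in DMSO, 22.4, 74.3 and 15.3 in osimertinib DTPs, and 31.1, 27.5 and 103 in osimertinib DTP + AZD5153. The 2 highest values are those of the libraries with a high promoter share. The changes were 0.73 ± 0.64 (adjusted p = 0.527) and 1.26 ± 0.64 (0.191; 0.38 and 0.602 without replicate 3). In osimertinib DTPs the largest change was at chr12:58876775-58877276, a region 43.5 kb inside the gene that is classed as a promoter through another transcript (0.88 ± 0.70, 0.475). Between the drug groups it was at chr12:58917182-58917683, which had 9.46, 2.64 and 5.44 CPM in osimertinib DTPs and 16.7, 7.33 and 5.03 in osimertinib DTP + AZD5153 (0.73 ± 0.61, not called), and these ranges overlapped.

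The CBL family members differed from one another. CBL itself had a single region that moved, chr11:119218049-119218550 in its intron 1, 11.96 kb downstream of the start. It had 13.5, 17.8 and 11.3 CPM in DMSO, 6.21, 3.48 and 3.02 in osimertinib DTPs, and 2.50, 3.49 and 1.35 in osimertinib DTP + AZD5153. Both drug groups lay below DMSO. The change was not past the threshold in osimertinib DTPs (-1.74 ± 0.56, adjusted p = 0.0537, or 0.0469 with the replicate number as a block) and was past it with AZD5153 (-2.51 ± 0.58, 0.00806; -2.25 and 0.00189 without replicate 3). The latter call was kept in 8 of 9 fits and lost without DMSO replicate 2 (0.0514). At the CBL promoter, chr11:119206229-119206730, the groups overlapped, with 10.3, 10.6 and 8.55 CPM in DMSO, 9.37, 36.2 and 4.73 in osimertinib DTPs, and 5.61, 5.70 and 19.5 in osimertinib DTP + AZD5153. Its changes were 0.76 ± 0.70 (0.554) and 0.05 ± 0.70 (0.972; -0.80 and 0.312 without replicate 3).

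CBLB had positive log2 fold changes at all 4 of its regions. Region chr3:105868477-105868978 had 11.5, 13.9 and 11.4 CPM in DMSO, 22.2, 69.3 and 21.1 in osimertinib DTPs, and 25.6, 26.4 and 76.2 in osimertinib DTP + AZD5153. Every drug-group library exceeded every DMSO library, and the highest were again the 2 libraries of high promoter share. The log2 fold change was 1.61 ± 0.61 in osimertinib DTPs (adjusted p = 0.0958) and 1.80 ± 0.61 with AZD5153 (0.0487, or 0.0802 with the block). Without replicate 3 the latter was 1.08 (0.0931). This call was kept in only 2 of the 9 fits, so leaving out most other single libraries lost it too. The CBLB region farthest upstream, chr3:105869537-105870038, covers part of the CBLB window printed above. Region chr3:105869013-105869514 lies between these 2, also reaches into that window and was not called in any comparison. The farthest one had 4.08, 4.54 and 3.72 CPM in DMSO, 8.22, 10.99 and 13.1 in osimertinib DTPs and 16.3, 15.9 and 2.32 in osimertinib DTP + AZD5153 (1.38 ± 0.63, 0.174, and 1.49 ± 0.63, 0.112; 1.96 and 0.00163 without replicate 3). The distal region of CBLB, chr3:105611913-105612414, intergenic and 61579 bp from a start site, varied within every group, at 2.18, 7.02 and 3.82 CPM in DMSO, 2.96, 10.2 and 14.4 in osimertinib DTPs, and 2.81, 22.2 and 1.35 in osimertinib DTP + AZD5153. It was called in no comparison (adjusted p = 0.467 and 0.435 against DMSO).

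CBLC had the lowest median log2 fold change of the 6 genes. Its regions span 5813 bp around the start, and the 4 upstream ones were lower in every drug-group library than in every DMSO library. Region chr19:44774503-44775004, at -2865 bp from the start, had 28.1, 54.2 and 39.0 CPM in DMSO, 8.89, 5.71 and 7.05 in osimertinib DTPs, and 3.41, 2.68 and 1.55 in osimertinib DTP + AZD5153. The 3 groups did not overlap. Its log2 fold change was -2.48 ± 0.55 in osimertinib DTPs (edgeR adjusted p = 0.0105) and -3.96 ± 0.60 with AZD5153 (0.00122; -3.73 and 2.62e-05 without replicate 3). The distal region chr19:44773759-44774260, at -3609 bp and intergenic, had 16.2, 27.6 and 21.7 CPM in DMSO, 5.35, 4.59 and 4.63 in osimertinib DTPs, and 1.60, 1.63 and 0.387 in osimertinib DTP + AZD5153. Its changes were -2.16 ± 0.57 (0.0229) and -4.11 ± 0.64 (0.00135; -3.75 and 2.15e-05 without replicate 3). Between the drug groups these 2 regions did not overlap either, but their changes there were not called.

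Nearer the CBLC start, chr19:44775591-44776092 had 12.6, 18.5 and 20.7 CPM in DMSO, 2.77, 0.696 and 2.32 in osimertinib DTPs, and 0.501, 0.814 and 1.35 in osimertinib DTP + AZD5153. Its changes were -3.13 ± 0.63 (edgeR adjusted p = 0.00678) and -4.32 ± 0.68 (0.00145; -4.71 and 1.45e-05 without replicate 3). The promoter region chr19:44776572-44777073 had 9.25, 15.7 and 17.1 CPM in DMSO, 3.73, 1.25 and 3.12 in osimertinib DTPs, and 0.401, 0.349 and 3.67 in osimertinib DTP + AZD5153. The change was -2.36 ± 0.75 (0.0508) and -3.36 ± 0.80 (0.0097; -5.18 and 7.63e-06 without replicate 3). Every call in these 4 regions with AZD5153 was kept in all 9 fits that left out 1 library. The 3 calls in osimertinib DTPs were kept in 4, 6 and 8 of 9 fits, from the farthest region to the nearest, and all were lost without DMSO replicate 2 (adjusted p = 0.0542 to 0.137). On the start site itself, chr19:44777854-44778355 had 6.62, 17.04 and 15.4 CPM in DMSO, 3.82, 23.0 and 6.44 in osimertinib DTPs and 1.503, 3.02 and 10.8 in osimertinib DTP + AZD5153, and was not called (-0.24 ± 0.74, 0.891, and -1.38 ± 0.77, 0.232; -2.53 and 0.00634 without replicate 3). Peaks were listed in 6, 5 and 6 of the 6 CBLC regions in DMSO, 6, 4 and 4 in osimertinib DTPs, and 0, 0 and 2 in osimertinib DTP + AZD5153.

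**Figure D3:**
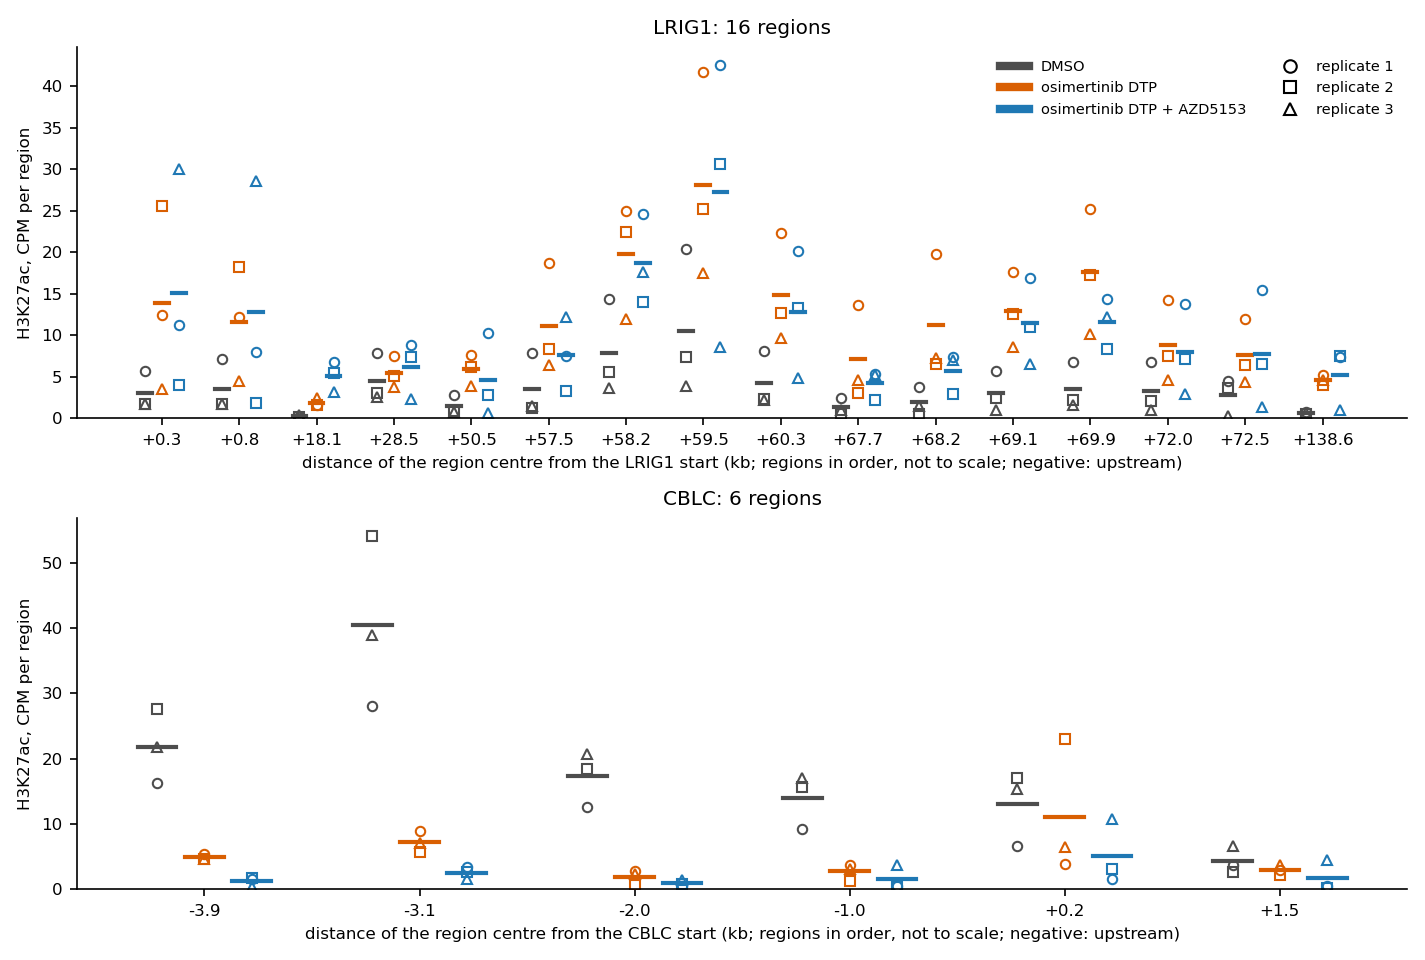
H3K27ac in CPM at the regions of LRIG1 (upper panel) and CBLC (lower panel), in order of distance from the gene start in kb. Symbols are libraries, their shape gives the replicate and bars are group means. Drug-group means lie above DMSO at every LRIG1 region and below it at every CBLC region.

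The order of the genes by promoter region, in CPM, differed between the groups. For each gene the promoter region of highest mean over all libraries was used in every group. It was not the strongest region of its gene in each group. In DMSO it was ERRFI1 (56.2 ± 6.24 CPM, SD, n = 3), LRIG3 (22.4 ± 3.41), CBLC (13.02 ± 5.60), CBLB (12.3 ± 1.45), CBL (9.84 ± 1.13) and LRIG1 (3.03 ± 2.33). The range of CBLC overlapped those of CBLB and CBL, while no other neighbours overlapped. In osimertinib DTPs CBLB (37.5 ± 27.5), LRIG3 (37.3 ± 32.2) and ERRFI1 (34.1 ± 11.4) overlapped at the top. In osimertinib DTP + AZD5153 the order was LRIG3 (53.7 ± 42.4), CBLB (42.7 ± 28.9), ERRFI1 (20.4 ± 6.27), LRIG1 (15.0 ± 13.4), CBL (10.3 ± 8.01) and CBLC (5.12 ± 5.00). All neighbours overlapped, while the regions used for ERRFI1 and LRIG3, and for CBLC and ERRFI1, did not. Without replicate 3 the means of the other 2 libraries kept that order, at 29.3, 26.0, 17.4, 7.59, 5.66 and 2.26 CPM, and LRIG3, CBLB and ERRFI1 then did not overlap. With replicate 3 included, the other ERRFI1 promoter region, inside the gene, had a higher mean than the one used. Its range in osimertinib DTP + AZD5153 overlapped those of LRIG3 and CBLC.

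Summing the counts of a gene over its promoter regions, and separately over its distal regions, gave 1 value per gene and library, fitted over 12295 and 8143 genes. These CPM are relative to all promoter sums or all distal sums, so they are on another scale than the values per region. CBL, CBLB and CBLC have 1 distal region each, so their distal sums are the counts already tested per region, rescaled. They are adjusted over other features and are not separate evidence. In osimertinib DTPs the CBL region was not called, while its sum was. In osimertinib DTPs, distal sums of ERRFI1, CBL and CBLC were lower and that of LRIG1 higher (of all genes, 15.9% were lower and 18.6% higher), and the promoter sum of CBLB was higher (2.8% of all genes higher, 3.35% lower). With AZD5153 the distal sums of ERRFI1, CBL and CBLC were lower (19.2% of all lower, 23.7% higher), as were the promoter sums of ERRFI1 and CBLC (7.04% of all lower), and the promoter sum of CBLB was higher (6.89% of all higher). Between the drug groups no sum was called by edgeR (0.0% of all). At an unadjusted p under 0.05 there were 1054 promoter sums and 898 distal sums of all genes, and among the 6 genes DESeq2 called 1, the distal sum of CBLC. Of all genes, DESeq2 called 90 distal sums higher and 114 lower, and 47 and 76 promoter sums. Without replicate 3 of osimertinib DTP + AZD5153 more genes were called in general. In osimertinib DTPs the background became 7.25% higher and 7.47% lower for promoter sums, and 26.8% and 25.3% for distal sums. With AZD5153 against DMSO it was 12% and 13% for promoter sums, and 27.3% and 27% for distal sums. Between the drug groups it was 0.61% and 1.48%, and 0.503% and 0.798%.

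The distal sum of ERRFI1 was 1515 ± 154 CPM in DMSO (SD, n = 3), 909 ± 136 in osimertinib DTPs and 707 ± 182 in osimertinib DTP + AZD5153, with no overlap between DMSO and either drug group. This was 1.67-fold lower in osimertinib DTPs (log2 -0.74 ± 0.25 (SE), edgeR adjusted p = 0.0413) and 2.14-fold lower with AZD5153 (-1.10 ± 0.25, 0.00557; -0.94 and 0.00071 without replicate 3). The first call did not hold with the replicate number as a block (0.0602) or without any 1 of the 6 DMSO and osimertinib DTP libraries (up to 0.151). The second held in all 9 such fits. The distal sum of LRIG1 was 290, 71.0 and 64.3 CPM in DMSO, 754, 369 and 304 in osimertinib DTPs, and 525, 275 and 446 in osimertinib DTP + AZD5153. It was 3.35-fold higher in osimertinib DTPs (1.75 ± 0.59, 0.0433, or 0.00848 with the block) and not past the threshold with AZD5153 (1.55 ± 0.59, 0.0557; 1.47 and 0.058 without replicate 3), although it was with the block (0.00788), in DESeq2 (0.0294) and with full-table library sizes (0.0439), where DMSO replicate 1 overlapped the drug group. The first call was lost without DMSO replicate 2 or 3 or any osimertinib DTP library (up to 0.172).

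CBLC had 51.4, 61.0 and 64.6 CPM at its 1 distal region in DMSO, 17.4, 12.2 and 14.2 in osimertinib DTPs, and 4.19, 3.66 and 2.02 in osimertinib DTP + AZD5153, with no overlap between any of the groups. It was 4.03-fold lower in osimertinib DTPs (-2.01 ± 0.35, adjusted p = 0.0021) and 16.6-fold lower with AZD5153 (-4.06 ± 0.40, 0.000179; -3.94 and 3.1e-05 without replicate 3), and both calls held in all 9 fits. The drug groups differed by -2.05 ± 0.39 (0.114), which was past the threshold without replicate 3 (-1.88, 0.0456) and in DESeq2 (0.00131). CBL had 42.8, 39.3 and 33.5 CPM at its 1 distal region in DMSO, 20.2, 9.25 and 9.24 in osimertinib DTPs and 6.55, 7.85 and 7.08 in osimertinib DTP + AZD5153. Its changes were -1.57 ± 0.41 (0.0129, lost without osimertinib DTP replicate 2 or 3 at up to 0.06) and -2.42 ± 0.43 (0.00152; -2.45 and 0.000864 without replicate 3).

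The promoter sums are scaled against those of other genes. CBLB had 75.9, 81.4 and 83.3 CPM in DMSO, 142, 151 and 186 in osimertinib DTPs, and 200, 195 and 148 in osimertinib DTP + AZD5153. This was 1.99-fold higher in osimertinib DTPs (1.00 ± 0.17, edgeR adjusted p = 0.0128) and 2.26-fold higher with AZD5153 (1.17 ± 0.17, 0.0041; 1.32 and 0.000887 without replicate 3). The first call was lost without DMSO replicate 2 or 3 or osimertinib DTP replicate 3 (up to 0.0752), and the second was not. ERRFI1 had 236, 222 and 260 CPM in DMSO, 205, 117 and 134 in osimertinib DTPs, and 98.2, 66.8 and 124 in osimertinib DTP + AZD5153. Its changes were -0.65 ± 0.26 (0.194) and -1.31 ± 0.27 (0.0134; -1.52 and 0.00339 without replicate 3). CBLC had 53.8, 85.7 and 115 CPM in DMSO, 26.0, 34.7 and 38.2 in osimertinib DTPs, and 5.93, 10.0 and 22.4 in osimertinib DTP + AZD5153, with changes of -1.36 ± 0.45 (0.117) and -2.72 ± 0.48 (0.0076; -3.39 and 0.000895 without replicate 3). Without replicate 3 the CBLC promoter sum was also lower with AZD5153 than in osimertinib DTPs (-2.04, 0.0393; -1.36 and 0.5 with it).

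These promoter calls depended on the scaling and, under the alternative sizes below, on 1 library. In the main fits with AZD5153 against DMSO, 2 promoter sums were lower and 1 to 2 higher whichever library was left out. With the effective library sizes of the full region table, an alternative chosen after seeing the data, no promoter sum of the 6 genes was called against DMSO. CBLB then had log2 fold changes of 1.33 (adjusted p = 0.258) and 1.55 (0.1), ERRFI1 had -0.38 (0.827) and -0.77 (0.509), and CBLC had -0.98 (0.716) and -2.06 (0.135), without change of sign. The distal sum of ERRFI1 in osimertinib DTPs also missed the threshold there (-0.89, 0.128). With the same sizes but without replicate 3, the CBLC promoter sum was called with AZD5153 (-3.36, 0.000382), as were the LRIG1 promoter sum (1.95, 0.0218) and the ERRFI1 distal sum (-0.89, 0.00264) in osimertinib DTPs. The promoter sums of CBLB (1.33 and 0.0647, 1.33 and 0.0987) and, with AZD5153, of ERRFI1 (-1.49, 0.0635) still missed it. LRIG3, whose promoter sums were 180, 139 and 148 CPM in DMSO, 215, 160 and 203 in osimertinib DTPs and 259, 198 and 245 in osimertinib DTP + AZD5153, was not called (0.31 ± 0.18, 0.386, and 0.59 ± 0.18, 0.0586; 0.57 and 0.0513 without replicate 3), although with AZD5153 it passed with the block (0.0288) and in DESeq2 (0.0163). The promoter sums of LRIG1 (0.29 and 0.234) and CBL (0.962 and 0.322) were not called either.

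**Figure D4:**
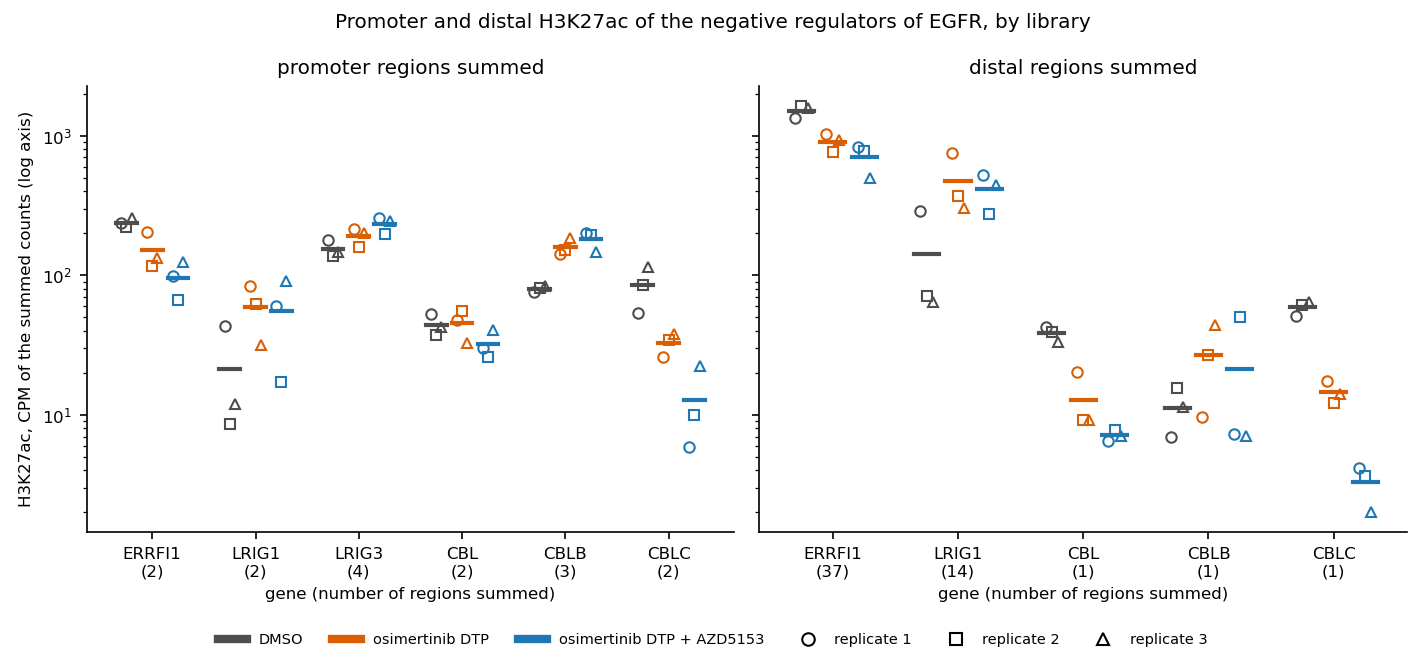
H3K27ac summed over the promoter regions (left) and the distal regions (right) of each gene, in CPM on a log axis. Symbols are the 9 libraries, their shape gives the replicate and bars are group means, and LRIG3 has no distal region. ERRFI1, CBL and CBLC distal sums step down from DMSO, while LRIG1 distal and CBLB promoter sums lie higher in the drug groups.

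The genes whose distal sums varied most like those of a member were found from the Pearson correlation of log2(CPM + 1) over the 9 libraries, among 5494 to 5495 genes. These points share libraries and depth, and so many genes were screened that high values occur readily. For ERRFI1 they were TTN-AS1 (r = 0.992), GPN1 (0.990) and SCHLAP1 (0.989), for LRIG1 they included CMAHP (0.979) and C10orf142 (0.977), and for CBL they were LINC01435 (0.986), DIRAS3 (0.981) and OPA3 (0.979). CBLB was most like ZPBP (0.983), USP13 (0.965) and IL37 (0.965), and CBLC most like PRLHR (0.992), HS3ST4 (0.989) and TRAF3 (0.989). Without replicate 3 of osimertinib DTP + AZD5153, LINC01435 and ZPBP kept the first rank, while the 3 genes nearest to ERRFI1 moved to ranks 19, 20 and 36.

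Another 19 genes of EGFR down-regulation, such as adaptors of CBL, endocytic proteins and phosphatases, had 162 regions. In osimertinib DTPs 12 of these were higher (against 5.58% of all regions) and 19 lower (against 5.13%), and with AZD5153 19 were higher and 19 lower (against 9.05% and 9.01%). Their median log2 fold changes were -0.07 and 0.19. When replicate 3 of the AZD5153 group was left out, 23 and 33 were called (against 14.2% and 12.7%), and 31 and 25 (against 18.4% and 17.3%), with medians of -0.07 and 0.18. Of their 11 distal sums tested, 3 were higher and 3 lower in osimertinib DTPs (of all genes, 18.6% and 15.9%), and 2 were higher and 2 lower with AZD5153 (23.7% and 19.2%), or 4 and 2 without replicate 3 (27.3% and 27%). Of 17 promoter sums, 0 were higher and 2 lower in each comparison (2.8% and 3.35%, then 6.89% and 7.04% of all genes), or 1 and 2, and 2 and 3, without replicate 3. The adaptor SH3KBP1 (CIN85), which links CBL to the endocytic machinery, fell in its distal sum in osimertinib DTPs (-1.47 ± 0.25, edgeR adjusted p = 0.00195). Of its 27 regions, 12 were called lower and 2 higher (against 5.13% and 5.58% of all regions), and both higher ones were distal. The distal sums of UBASH3B, a phosphatase that binds CBL (-1.74 ± 0.27, 0.00134), and STAM2, part of the endosomal sorting machinery (-1.65 ± 0.34, 0.0046), also fell. Those of EPS15L1, an endocytic adaptor, and GRB2, the adaptor that couples EGFR to CBL and to RAS signalling, rose (1.87 ± 0.48, 0.0133, and 1.66 ± 0.37, 0.00658). Of the 6 GRB2 regions, however, 0 were called. With AZD5153 the values were -1.15 (0.0046) for SH3KBP1, -1.40 (0.00211) for UBASH3B, -0.87 (0.0569) for STAM2, 2.67 (0.00198) for EPS15L1 and 0.72 (0.135) for GRB2. Without replicate 3 they were -1.08 (0.00143), -1.37 (0.000643), -0.75 (0.0561), 2.26 (0.00123) and 0.87 (0.0482), the last then past the threshold. A pair of genes was added after their values were seen. PTPRJ, a receptor tyrosine phosphatase, rose in its distal sum (0.68 ± 0.22, edgeR adjusted p = 0.0323, and 1.15 ± 0.22, 0.00214 with AZD5153). Without replicate 3 the latter was 0.99 (0.000466). HGS, part of the endosomal sorting machinery, fell in its promoter sum (-0.82 ± 0.20, 0.0446, and -1.56 ± 0.21, 0.00315 with AZD5153; -1.69 and 0.000895 without replicate 3), as did SH3KBP1 (-1.18 ± 0.21, 0.014, and -0.78, 0.0372; -0.55 and 0.0259).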

How the data were processed

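H3K27ac ChIP-seq of H1975 cells gave 9 libraries in 3 groups of 3, and 1 pooled input. Per the labels and the submitters' processing notes, the authors used BWA 0.7.17, MACS2 2.2.6, featureCounts 2.0.0 and ChIPseeker 1.29.1 with build hg38. Thresholds and filters were not given in the sources used here. The deposited tables hold raw read counts per region of 502 bp. The deposited peak lists, 1 per library, give the fold enrichment and the −log10 of the p and q value of each peak as MACS2 writes them, and were used only for whether a peak overlapped a region by at least 1 bp.

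Counts were fitted in R 4.3.3 with edgeR 4.0.16 (limma 3.58.1, quasi-likelihood test, TMM, filterByExpr with a minimum count of 10), all 9 libraries together and without covariates. Of 169637 regions, 157919 were tested, including all 78 described. P-values were adjusted by Benjamini-Hochberg over all regions with a threshold of 0.05, and the SE is the log2 fold change over the square root of F. Regions within 1 kb of a start site were taken as promoter and those beyond 3 kb as distal, and their counts were summed per gene and fitted in the same way with TMM factors of their own. Distances in kb are from the RefSeq gene start to the centre of a region. Fits were also run on simulated counts with a common dispersion and no outlying library, so that run cannot show how the libraries of high promoter share affect the calls. Tables and figures were made with python 3.11.15, pandas 2.3.3, numpy 2.4.6 and matplotlib 3.10.9.

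The members, lists and tests were chosen with earlier results of these data known. Regions named were the promoter and the distal region of highest mean per gene, every called region (for ERRFI1, the 4 of largest change), and, for a gene without calls, the region of largest change in each comparison. The second promoter region of ERRFI1 and the upstream one of CBLB were added after their values were seen. Values between the drug groups were given only where named. Same-numbered DMSO and osimertinib DTP libraries deviated together from their group means (r = 0.360, 0.329 and 0.309), although no label states what a replicate number stands for. The main fits did not model this pairing, so their p-values ignore it, and the replicate block was used only as an alternative. Same-numbered DMSO and osimertinib DTP + AZD5153 libraries had r of 0.0026, 0.541 and 0.328, so that replicates 2 and 3 deviated together there too. The main fits did not model that either. Between the drug groups r was 0.290, -0.089 and -0.315. Alternatives were DESeq2 1.42.0, no TMM, a loess offset (span 0.3), fits of unfiltered counts, of annotated regions alone or of the compared groups alone, the replicate block, a threshold of 0.01 and leaving out each library. Effective library sizes of the full table were added for the sums after seeing the data, as were the other genes without replicate 3 of osimertinib DTP + AZD5153. Single values of a few genes are not reported here.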

Additional observations from a re-analysis of the deposited data

How the results depend on the processing

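Counts of calls below are given as higher and lower. Of the 6 and 9 regions called in osimertinib DTPs against DMSO, 0 and 2 passed at 0.01. Without TMM 3 were higher, in DESeq2 16 were lower, and with only the groups compared in the fit 17 and 19 were called. The calls over all regions moved as well. They were 8814 and 8107 in the main fit, 2036 and 1737 at 0.01, and 5950 and 6219 without TMM. In DESeq2 they were 12497 and 15406, and with only the groups compared 19930 and 18728 of 146480. With AZD5153 against DMSO, where 4 and 23 were called, 2 and 10 passed at 0.01. With the replicate block 7 were higher, and with only the groups compared 2. Of all regions, 4834 and 4964 passed at 0.01. Higher ones numbered 12445 with the block and 7762 of 142167 with only the groups compared, in place of 14286. Among promoter sums in osimertinib DTPs (1 and 0), 0 were higher at 0.01 or with full-table library sizes. In DESeq2 and with only the groups compared 1 was lower. Of all promoter sums there, 62 were higher at 0.01 and 132 with full-table sizes, in place of 344. Lower ones numbered 775 in DESeq2 and 808 with only the groups compared, in place of 412. With AZD5153 (1 and 2), 2 were higher in DESeq2 and with the block, and 0 with full-table sizes, with or without replicate 3. At 0.01 1 was lower, with full-table sizes 0, and with these and without replicate 3 1. Of all promoter sums, 847 were higher in the main fit, 1320 in DESeq2 and 696 with the block. With full-table sizes 291 were higher, or 389 without replicate 3. Lower ones numbered 865 in the main fit and 274 at 0.01. With full-table sizes 135 were lower, or 339 without replicate 3. Among distal sums, 0 were higher and 1 lower at 0.01 in osimertinib DTPs (1 and 3), against 835 and 685 of all. Between the drug groups 1 was lower in DESeq2, against 114 of all. With AZD5153 against DMSO 1 was higher in DESeq2, with the block and with full-table sizes, with or without replicate 3. Of all distal sums, 1933 were then higher in the main fit, 2150 in DESeq2 and 1747 with the block. With full-table sizes 1351 were higher, or 2374 without replicate 3. The log2 fold changes that turned sign were the CBL promoter region with AZD5153 against DMSO without TMM (-0.24) and, with full-table sizes, the CBL promoter sum with AZD5153 against DMSO (0.082) and the LRIG1 promoter sum between the drug groups (0.13). With full-table sizes and without replicate 3, the sums between the drug groups that turned were LRIG3 promoter (-0.0026), ERRFI1 distal (0.14), LRIG1 distal (0.044) and CBLB distal (0.44). Leaving out 1 library at a time gave 0 to 15 higher and 0 to 20 lower regions in osimertinib DTPs, and 1 to 11 and 10 to 27 with AZD5153. Promoter sums ranged from 0 to 1 and 0 to 1 in osimertinib DTPs, 1 to 2 higher with AZD5153 and 0 to 1 lower between the drug groups, and distal sums from 0 to 1 and 1 to 3 in osimertinib DTPs, 0 to 1 higher with AZD5153 and 0 to 1 lower between the drug groups. The values that turned sign there were, in osimertinib DTPs, the CBL promoter sum (-0.13 to 0.23) and the regions CBL chr11:119206229-119206730 (-0.42 to 1.297), CBLC chr19:44777854-44778355 (-1.28 to 0.27), LRIG3 chr12:58917182-58917683 (-0.28 to 0.57) and LRIG3 chr12:58919969-58920470 (-0.20 to 1.20). With AZD5153 against DMSO they were the CBLB distal sum (-0.64 to 1.39) and the regions CBL chr11:119206229-119206730 (-0.80 to 0.32), CBLB chr3:105611913-105612414 (-1.03 to 1.59) and LRIG3 chr12:58876775-58877276 (-0.19 to 1.03). Between the drug groups they were the sums of CBLB distal (-1.89 to 0.27), LRIG1 distal (-0.44 to 0.32) and LRIG1 promoter regions (-0.63 to 0.33). The cause of these shifts was not tested. TMM moved the median of all regions with AZD5153 against DMSO from -0.02 to 0.23, and without it 9564 regions of all were higher and 15152 lower, in place of 14286 and 14232. At counts of up to 594 per region and 3 libraries a group, small differences were not detectable.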
